A study of Mus musculus with 19 samples.

Results

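The CD4+ T cell receptor repertoire of lymph nodes that met heart antigen after an injury was set against that of nodes that met heart antigen by injection. The members were chosen by their labels, as 3 libraries of mediastinal nodes taken after myocardial infarction and 3 libraries of axillary nodes taken after immunization with heart extract, 6 of the 19 samples in the series. Every mouse was Balb/c, and every node library came from 500000 sorted CD4+ TCRβ+ cells collected 7 days after surgery or immunization. The infarct nodes came from mice with a ligated left anterior descending coronary artery. The extract nodes came from mice that received 1 mg of mouse heart protein extract under the skin, emulsified in the adjuvant Titermax Gold. Mediastinal nodes after thoracotomy without ligation (sham nodes, n = 4), axillary nodes after adjuvant alone (adjuvant nodes, n = 4) and axillary nodes after 100 µg of porcine cardiac myosin in the same adjuvant (myosin nodes, n = 2) served as reference, together with 3 libraries of 5000 CD4+ T cells each from infarcted hearts. Operated mice also received buprenorphine, and the labels give a smaller and a larger adjuvant volume for immunized mice without saying which sample had which. Treatment and node site changed together between the infarct and extract nodes and cannot be told apart in the direct comparison. Values are therefore also given for the sham and adjuvant nodes, which received no heart antigen by injection and had no ligation. These control nodes differ from each other in site, surgery and adjuvant, which cannot be told apart either. The labels do not say whether a library was 1 animal, and the p-values below speak only of variation among the libraries, which may be technical. The node libraries held 7534295 to 9235800 reads and the heart libraries 2426715 to 5126910.

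The T cell receptor β chain is assembled in each developing T cell from a V, a D and a J gene segment. The V segment encodes the loops that touch mainly the MHC molecule, while the CDR3, formed at the junction, touches mainly the bound peptide. A naive node holds very many receptors, each in few cells, and a cell that meets its antigen divides, so that its CDR3 takes up more of the reads. Transcripts were read in bulk, so more cells of a clone and more receptor RNA per cell cannot be told apart.

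The most abundant CDR3 of each of the 6 libraries is shown here because it gives the size of the largest expansions and how far they were shared. The amino acid strings follow the deposited tables, which leave out the conserved cysteine at the start and phenylalanine at the end.
infarct node 1: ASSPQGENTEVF
infarct node 2: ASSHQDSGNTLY
infarct node 3: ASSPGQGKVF
extract node 1: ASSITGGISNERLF
extract node 2: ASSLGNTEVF
extract node 3: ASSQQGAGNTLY
The first of these, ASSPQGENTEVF with TRBV14, had 8567 reads in infarct node 1, or 0.113% (95% Wilson interval 0.111% to 0.116%, which like all intervals here covers counting error only, since the PCR reads carried no molecular identifiers). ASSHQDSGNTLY, with TRBV5, made up 0.103% of infarct node 2 (interval 0.101% to 0.105%), and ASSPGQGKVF, with TRBV19, 0.240% of infarct node 3 (0.236% to 0.243%). In the extract nodes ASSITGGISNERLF, with TRBV19, made up 0.0779% of node 1 (0.0760% to 0.0799%), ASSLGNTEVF, with TRBV14, 0.110% of node 2 (0.108% to 0.113%) and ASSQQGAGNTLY, with TRBV14, 0.159% of node 3 (0.157% to 0.162%). Thus no single CDR3 took more than a small share of any of the 6 libraries.

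These leading CDR3s differed in how widely they were listed. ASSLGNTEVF was in all 3 infarct nodes with 308 to 788 reads, in 4 sham nodes and in 3 adjuvant nodes, so the top CDR3 of extract node 2 was a receptor present at a lower level in most nodes. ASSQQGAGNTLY had 302 to 405 reads in the infarct nodes, 12397 in extract node 3, 2007 in extract node 2 and none in extract node 1. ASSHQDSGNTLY had 8719 reads in infarct node 2, 1402 in extract node 2 and 1136 in myosin node 1, and it was not listed in any sham or adjuvant node. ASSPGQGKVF was listed with 16504 reads in heart 3, with 28 in infarct node 1, with 65 in adjuvant node 2 and with none in the extract nodes.

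The infarct nodes held more distinct CDR3s than the extract nodes, and their reads were spread more evenly. After 7534295 reads had been drawn from each node library, infarct nodes 1, 2 and 3 listed 200785, 230424 and 140333 CDR3s, and extract nodes 1, 2 and 3 listed 52681, 87211 and 38424. The groups did not overlap. The means were 190514 ± 45915 (SD, n = 3) and 59439 ± 25086 (n = 3), a difference of 131075 with an exact two-sided permutation p of 0.100, the smallest that 3 against 3 libraries can give. The sham nodes listed 120090.2 ± 66288 (n = 4, 52635 to 211445) and the adjuvant nodes 70079 ± 24090.4 (n = 4, 45144 to 92844), a difference of 50012, and the myosin nodes listed 97348 and 91621. The difference between infarct and extract nodes therefore exceeded that between the control nodes by 81064, and permuting the labels within each node site gave an exact p of 0.125. Leaving out each of 14 libraries in turn, that excess ran from 58579 to 111515, with exact permutation p from 0.0371 to 0.293. The largest excess and the lowest p came without sham node 3, which listed 211445 CDR3s.

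Expanded CDR3s, defined as those with at least 0.02% of the drawn reads, were few in the infarct nodes and many in the extract nodes. The infarct nodes held 43, 47 and 68 such CDR3s and the extract nodes 436, 112 and 877. They took 1.38%, 1.33% and 2.24% of the reads of the infarct nodes and 12.3%, 3.49% and 27.1% of the reads of the extract nodes. Again the groups did not overlap, and the exact permutation p was 0.100 for both measures. The extract nodes varied widely, and extract node 2 was closer to infarct node 3 than to extract node 3. The share of expanded reads was 0.480% to 17.0% in the sham nodes and 2.62% to 18.5% in the adjuvant nodes, so the extract nodes reached above both control ranges only in extract node 3, while all infarct nodes lay within the sham range.

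The 100 most abundant CDR3s gave the same order, though these measures come from the same drawn reads and are not independent results. Sham node 3, with 211445 distinct CDR3s, had 17 expanded CDR3s and 1.78% of reads in its top 100. Sham node 4, with 52635, had 526 and 5.78%. In the 6 compared libraries the measures were as follows. The 100 most abundant CDR3s held 2.39%, 2.23% and 2.82% of the reads of the infarct nodes and 4.12%, 3.25% and 5.60% of those of the extract nodes (exact permutation p = 0.100), while the sham nodes ran from 1.78% to 5.78% and the adjuvant nodes from 2.92% to 5.51%. Normalised Shannon entropy, which is 1 when every CDR3 has the same number of reads, was 0.930, 0.930 and 0.923 in the infarct nodes and 0.896, 0.916 and 0.877 in the extract nodes (exact permutation p = 0.100). It ran from 0.884 to 0.932 in the sham and from 0.885 to 0.923 in the adjuvant nodes. The entropy difference of 0.0315 shrank to 0.00717 when entries under 10 reads were left out. CDR3s with 10 to 99 reads held 46.1% ± 8.18 of the reads of the infarct nodes and 11% ± 9.19 of those of the extract nodes, beside 28.7% ± 17.4 in the sham and 15.1% ± 9.76 in the adjuvant nodes. CDR3s with at least 100 but under 1000 reads held 46.3% ± 9.05 and 63.3% ± 8.21, beside 57.8% ± 9.62 and 65.8% ± 3.65. CDR3s with 1000 reads or more held 3.52% ± 0.825 and 24.8% ± 16.7, beside 11.4% ± 11.4 and 18.1% ± 13.3.

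**Figure D1:**
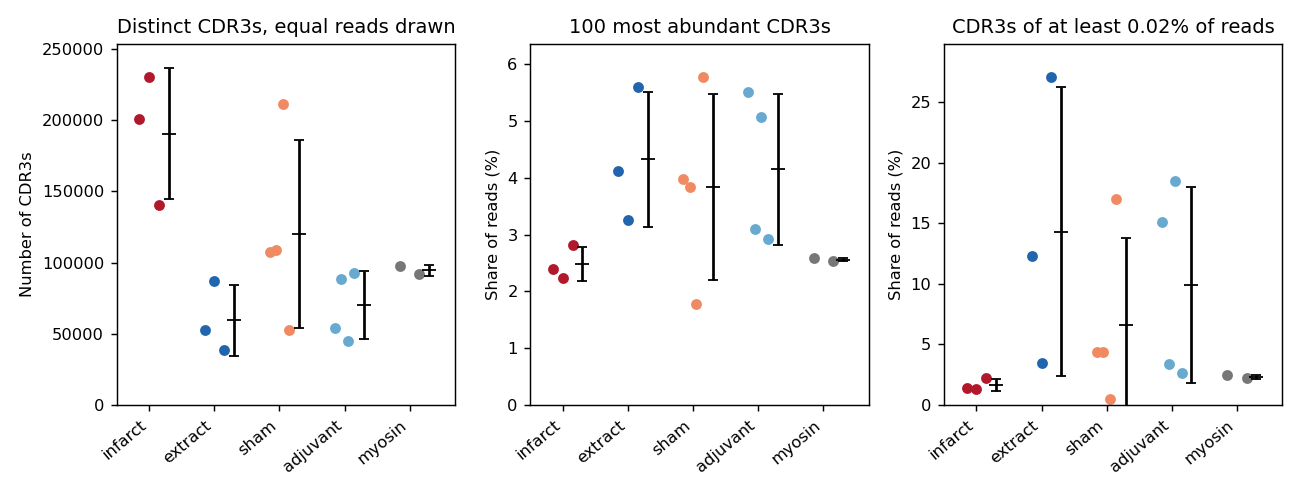
Number of distinct CDR3s, share (%) of the reads that the 100 most abundant CDR3s held and share of reads (%) in CDR3s of at least 0.02% of reads, for 16 lymph node libraries after equal numbers of reads were drawn. Points are libraries, and bars to their right give the mean and SD of the group. The infarct nodes list 140333 to 230424 CDR3s and the extract nodes 38424 to 87211, with 1 sham node at 211445.

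A few V segments carried most expanded CDR3s in both kinds of node. TRBV14 (Vβ13) and TRBV19 (Vβ6) together carried 58.1%, 61.7% and 67.6% of the expanded CDR3s of the infarct nodes and 88.3%, 78.6% and 80.0% of those of the extract nodes. The same share was 68.3% to 82.4% in the sham and 65.5% to 79.1% in the adjuvant nodes, so both control ranges reached values seen in the extract nodes. Over all reads, TRBV14 made up 13.2% ± 0.491 of the infarct and 13.4% ± 0.736 of the extract nodes, and TRBV19 23.7% ± 0.654 and 24.4% ± 1.02. TRBV5 (Vβ1) carried 20.9%, 21.3% and 17.6% in the infarct nodes and 6.65%, 9.82% and 8.89% in the extract nodes. In both descriptions the 2 groups did not overlap. The adjuvant nodes ranged from 9.24% to 23.8% for TRBV5 and the sham nodes from 10.8% to 15.7%, and the infarct nodes had only 9 to 12 such CDR3s each. Of the expanded CDR3s of the extract nodes, 843 of 1392 were listed in at least 1 infarct node, as were 505 of 752 of the sham nodes and 807 of 1236 of the adjuvant nodes. Of all CDR3s of the extract nodes, 34.2% were listed in an infarct node. Of the expanded CDR3s of the infarct nodes, 87 of 142 were listed in an extract node, beside 355 of 752 of the sham and 563 of 1236 of the adjuvant nodes, and of all CDR3s of the infarct nodes 11.9%. Few were expanded in at least 2 nodes of a group. These were 12 of 142 in the 3 infarct nodes and 33 of 1392 in the 3 extract nodes. In the sham and adjuvant nodes, with 4 libraries each, they were 29 of 752 and 49 of 1236.

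V segment usage over all reads differed between the infarct and extract nodes in 4 of 22 TRBV segments (18.2%) at an adjusted p under 0.05 in edgeR's quasi-likelihood test. TRBV16 (Vβ11) and TRBV29 (Vβ7) were higher in the infarct nodes, and TRBV2 (Vβ4) and TRBV4 (Vβ10) were lower. The control nodes differed in more segments, with 10 of 22 (45.5%) between sham and adjuvant nodes, and there the same 4 segments passed in the same directions. The difference between the 2 contrasts was tested directly and passed for 0 of 22 (0%), 3 segments had an unadjusted p under 0.05, and the count in DESeq2 was also 0.

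TRBV16, a segment whose T cells are deleted by mammary tumor virus superantigens in mouse strains that carry them, made up 2.03%, 1.32% and 1.59% of the reads of the infarct nodes and 1.15%, 0.955% and 0.778% of those of the extract nodes. All infarct values lay above all extract values. Infarct and extract nodes did not overlap in 7 of 22 TRBV segments, and sham and adjuvant nodes did not overlap in 7 of 22 either. The log2 fold change was 0.78 (SE 0.176, adjusted p = 0.00607), and between sham and adjuvant nodes it was 1.02 (SE 0.153, adjusted p = 1.01e-04). TRBV29 made up 1.31%, 0.627% and 0.568% against 0.260%, 0.276% and 0.331%, with infarct node 1 well above the other 2 infarct nodes. Its log2 fold change was 1.53 (SE 0.485, adjusted p = 0.0376), against 1.19 (SE 0.417, adjusted p = 0.0315) in the control nodes. Without infarct node 1 the TRBV29 value fell to 1.05 with an adjusted p of 0.225, and it did not pass without extract node 1, 2 or 3 either (adjusted p from 0.0780 to 0.143).

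TRBV2 made up 4.16%, 4.43% and 4.16% of the infarct reads and 5.26%, 4.89% and 5.0% of the extract reads. The groups did not overlap, the log2 fold change was -0.25 (SE 0.0514, adjusted p = 0.00510), and the sham nodes stood below the adjuvant nodes by nearly the same amount (-0.23, SE 0.0445, adjusted p = 8.51e-04). Counted as distinct CDR3s in place of reads, TRBV2 was no longer lower in the infarct nodes (0.06, adjusted p = 0.564). TRBV4 made up 7.63%, 8.84% and 7.91% against 9.36%, 9.46% and 9.06%, an edgeR log2 fold change of -0.19 (SE 0.0546, adjusted p = 0.0226), and -0.35 (SE 0.0473, adjusted p = 7.39e-05) between the control nodes. TRBV4 did not pass without infarct node 1 (adjusted p = 0.148) or 3 (0.0671), or without extract node 1 (0.0785) or 2 (0.0936). Other settings that ended a call were, for TRBV16, a fit of the 6 libraries alone (adjusted p = 0.119) and distinct CDR3s (0.123), for TRBV29, edgeR without legacy settings (0.452) and distinct CDR3s (0.115), and for TRBV4, TMM factors (0.0878) and DESeq2 (0.0603).

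**Figure D2:**
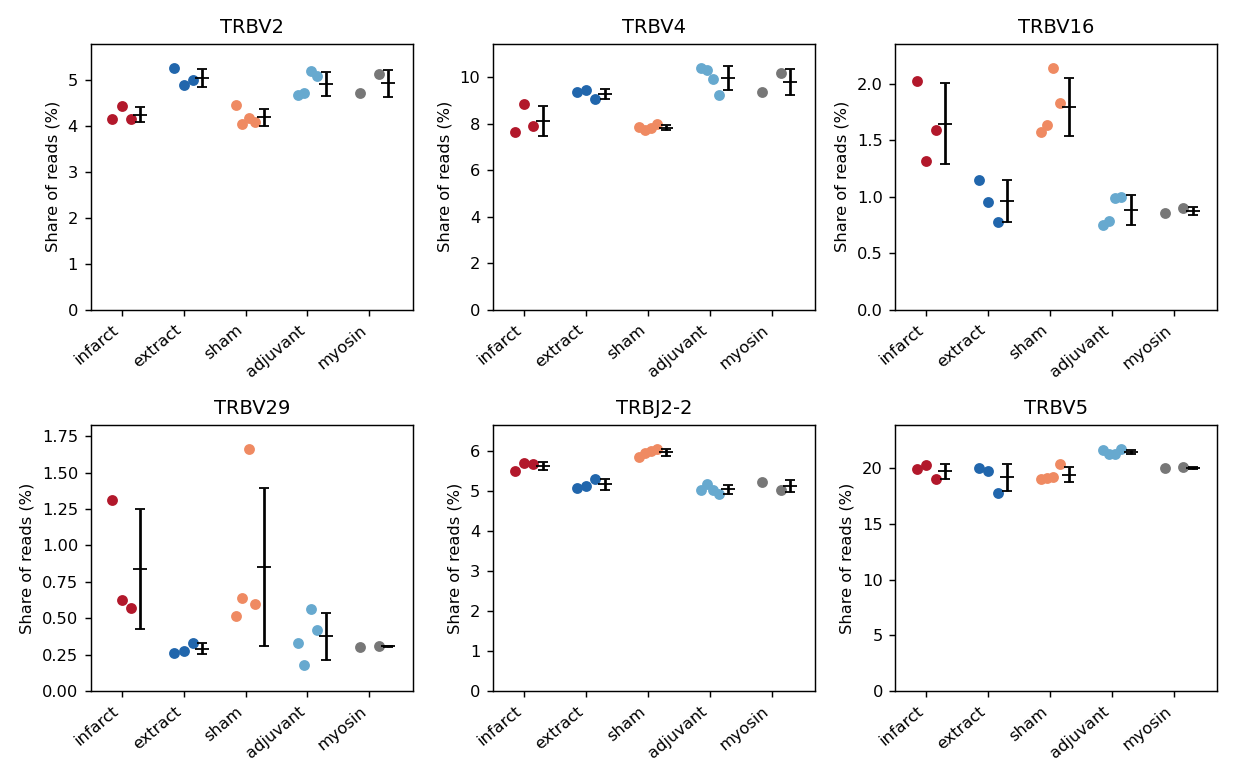
Share of reads (%) of the 4 TRBV segments and the TRBJ segment that passed between infarct and extract nodes, and of TRBV5, in 16 lymph node libraries. Points are libraries and bars give the group mean and SD. TRBV2 and TRBV4 are lower, and TRBV16, TRBV29 and TRBJ2-2 higher, in infarct than in extract nodes, and sham and adjuvant nodes differ in the same direction.

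The 4 TRBV segments with the smallest p in the difference of the contrasts did not pass. They were not those with the largest fitted difference, since TRBV12-1, for example, had -0.64 (SE 0.520). TRBV5 made up 19.9%, 20.3% and 19.0% of the infarct reads and between 17.8% and 20% of the extract reads, while it was 19.4% ± 0.650 in the sham and 21.4% ± 0.226 in the adjuvant nodes. The difference between the contrasts was 0.18 on the log2 scale (SE 0.0550, adjusted p = 0.117). TRBV19, the most used segment, was 23.7% ± 0.654 in the infarct and 24.4% ± 1.02 in the extract nodes, and 23.8% ± 1.03 in the sham and 21.9% ± 1.05 in the adjuvant nodes, a difference between contrasts of -0.16 (SE 0.0626, adjusted p = 0.256). TRBV20 (0.15, adjusted p = 0.256) and TRBV4 (0.15, adjusted p = 0.289) followed. TRBV5 passed without sham node 4 (adjusted p = 0.0454) and without entries under 10 reads (0.0299).

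The segments that such superantigens act on in this strain are TRBV12-1, TRBV12-2, TRBV15, TRBV16 and TRBV26. By fitted log2 fold change all 5 were on the higher side in the infarct nodes, beside 13 of all 22 segments. The summed share of the 5 was 2.90% ± 0.481 in the infarct nodes, 1.99% ± 0.277 in the extract nodes, 3.03% ± 0.505 in the sham nodes and 1.84% ± 0.205 in the adjuvant nodes. Of the 5, TRBV16 alone passed between infarct and extract nodes, and TRBV16 and TRBV12-1 passed between sham and adjuvant nodes. TRBV16 made up 1.65% ± 0.361 of infarct and 0.959% ± 0.184 of extract reads, and the groups overlapped for the other members. TRBV12-2 made up 0.103%, 0.0877% and 0.393% of infarct reads and 0.118%, 0.0771% and 0.0873% of extract reads. Infarct node 3 was also the highest infarct node for TRBV12-1, TRBV15 and TRBV26. The median log2 fold change of the list was 0.58, beside 0.06 over all 22 segments, and 0.97 beside 0.11 in the control contrast. In the TRBV13 family (Vβ8), 0 of 3 members passed in any of the 3 contrasts, and the summed share was 9.23% ± 0.0460 in the infarct and 9.42% ± 0.401 in the extract nodes.

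Among J segments, TRBJ2-2 was the only one of 11 (9.09%) to pass. It made up 5.51%, 5.71% and 5.68% of the infarct reads and 5.07%, 5.12% and 5.32% of the extract reads, without overlap, an edgeR log2 fold change of 0.12 (SE 0.0408, adjusted p = 0.0327). The call was lost without infarct node 2 (adjusted p = 0.199) or 3 (0.125) or extract node 2 (0.0877), without entries under 10 reads (0.180), without the 100 most abundant CDR3s (0.136) and in DESeq2 (0.161). Between sham and adjuvant nodes 8 of 11 passed (72.7%), and the TRBJ2-2 value was 0.24 (SE 0.0353, adjusted p = 2.78e-09). Infarct and extract nodes did not overlap in 3 of 11 TRBJ segments, and sham and adjuvant nodes in 6 of 11. All 6 segments of the TRBJ2 cluster were on the higher side in the infarct nodes, and their summed share was 57.6% ± 0.802 against 55.5% ± 2.26 in the extract nodes. The corresponding shares were 60.3% ± 2.90 in the sham and 54.3% ± 1.94 in the adjuvant nodes. All 6 TRBJ2 segments were likewise on the higher side in the sham nodes, where 4 of them passed. Of the 5 TRBJ1 segments, 0 were on the higher side there, and 4 passed as lower. The median log2 fold change of the TRBJ2 cluster was 0.06 between infarct and extract nodes and 0.17 between the control nodes, beside 0.01 and 0.05 over all 11 segments.

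The test of the difference between these contrasts passed for 0 of 11 J segments (0%), 4 of them at an unadjusted p under 0.05, and 0 were called by DESeq2. TRBJ2-5 (-0.17, SE 0.0676), TRBJ2-4 (-0.14, SE 0.0593), TRBJ2-2 (-0.12, SE 0.0539) and TRBJ1-2 (0.14, SE 0.0603) came nearest, each with an adjusted p of 0.0762. These counts rested on single libraries: 5 segments passed without sham node 1, 3 without extract node 2, 2 without extract node 1, and 1 without sham node 4, adjuvant node 1, adjuvant node 2 or extract node 3.

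**Figure D3:**
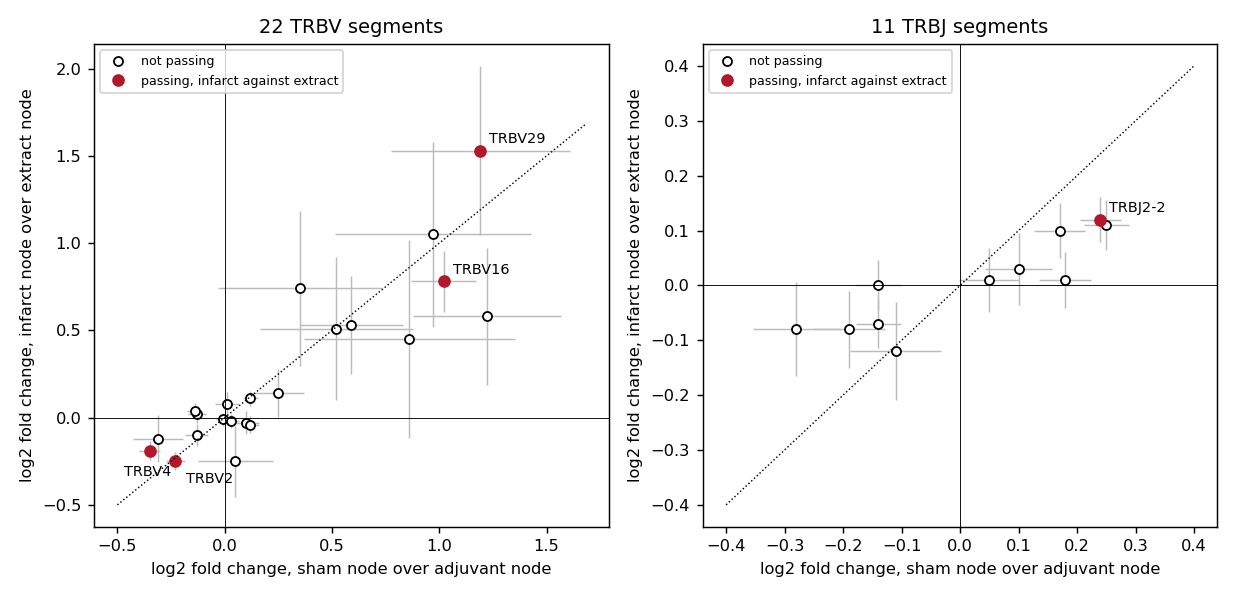
Log2 fold change of each TRBV (left) and TRBJ (right) segment between infarct and extract nodes, against that between sham and adjuvant nodes; bars are standard errors, the dotted line marks equal values, and red points passed between infarct and extract nodes. Of 22 TRBV segments 16 have the same sign in both contrasts, and of 11 TRBJ segments 10.

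No V-J pair passed between infarct and extract nodes (0 of 242, 0%, in edgeR, 45 of them at an unadjusted p under 0.05), against 8 calls by DESeq2. Between sham and adjuvant nodes 68 of 242 passed (28.1%), and 0 (0%) passed in the difference of the contrasts, where 20 reached an unadjusted p under 0.05 and 4 were called by DESeq2. The pair with the smallest p was TRBV16 with TRBJ2-3, at 0.233%, 0.181% and 0.191% of the infarct reads and 0.122%, 0.0828% and 0.0493% of the extract reads (log2 fold change 1.25, SE 0.271, adjusted p = 0.0820). TRBV1 with TRBJ2-1 followed at 0.771% ± 0.0161 against 0.616% ± 0.0638 (0.32, adjusted p = 0.104), then TRBV29 with TRBJ2-1 at 0.0735% ± 0.0359 against 0.0233% ± 8.74e-04 (1.66, adjusted p = 0.163). TRBV12-2 with TRBJ1-1 (2.99, adjusted p = 0.163) owed its mean to infarct node 3, which held 0.0523% against 0.00568% and 0.00400% in the other infarct nodes. Between sham and adjuvant nodes the edgeR log2 fold changes of these 4 pairs, in the same order, were 1.06 (adjusted p = 0.00518), 0.26 (0.0105), 1.53 (0.0129) and 1.31 (0.186).

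No CDR3 length passed in any contrast (0 of 21, 0%, for infarct against extract, for sham against adjuvant and for their difference, by edgeR), with 2 lengths at an unadjusted p under 0.05 between infarct and extract nodes and 4 in the difference; the calls by DESeq2 numbered 2 in both. CDR3s of 12 residues, the most common length, made up 30.2%, 30.1% and 30.2% of the infarct reads and 30.7%, 30.8% and 30.6% of the extract reads, an edgeR log2 fold change of -0.03 (SE 0.0126, adjusted p = 0.322). The groups did not overlap, though the sham and adjuvant nodes, at 29.9% ± 0.243 and 29.9% ± 0.353, spread more widely. Weighted by reads, the average length came to 12.1 residues for infarct and for extract nodes (exact permutation p = 1.00).

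The composition of the CDR3 centre, taken as the residues left after the first 3 and the last 4, was the one family of features, among the 5 tested, in which the difference of the contrasts passed. Between infarct and extract nodes 0 of 20 residues passed in edgeR (0%, 2 of them at an unadjusted p under 0.05; 0 were called by DESeq2, where 0 had an unadjusted p under 0.05), and between sham and adjuvant nodes 3 of 20 passed (15.0%: leucine, aspartate and asparagine). In the difference of the contrasts 2 of 20 passed (10%). Aspartate, an acidic residue, made up 6.83%, 6.77% and 6.83% of centre residues in the infarct nodes and 6.62%, 6.65% and 6.57% in the extract nodes. It stood the other way round in the control nodes, with 6.68% ± 0.0685 in the sham and 6.94% ± 0.132 in the adjuvant nodes. The log2 fold changes were 0.04 (SE 0.0166, adjusted p = 0.136) and -0.05 (SE 0.0144, adjusted p = 0.00175), and their difference was 0.10 (SE 0.0220, adjusted p = 3.67e-04). Counted over distinct CDR3s, aspartate did not pass (0.09, adjusted p = 0.0726).

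Isoleucine, a branched hydrophobic residue, made up 2.56%, 2.59% and 2.65% in the infarct nodes and 2.65%, 2.76% and 2.76% in the extract nodes, and 2.63% ± 0.0508 in the sham and 2.48% ± 0.106 in the adjuvant nodes. The log2 fold changes were -0.07 (SE 0.0376) and 0.08 (SE 0.0325), and their difference was -0.15 (SE 0.0497, adjusted p = 0.0265). Isoleucine did not pass without any 1 of 8 libraries (sham node 2, infarct nodes 1 and 2, adjuvant nodes 1, 3 and 4, extract nodes 2 and 3; adjusted p from 0.0665 to 0.119), nor with TMM factors (0.0676), without entries under 10 reads (0.147) or over distinct CDR3s (0.135), and DESeq2 passed neither residue (adjusted p = 0.105 for both). Leucine, another hydrophobic residue, was 4.15% ± 0.0931 in the infarct and 3.94% ± 0.106 in the extract nodes (0.08, SE 0.0267, adjusted p = 0.0903), in the direction of the sham and adjuvant nodes (0.14, SE 0.0231, adjusted p = 1.52e-07).

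**Figure D4:**
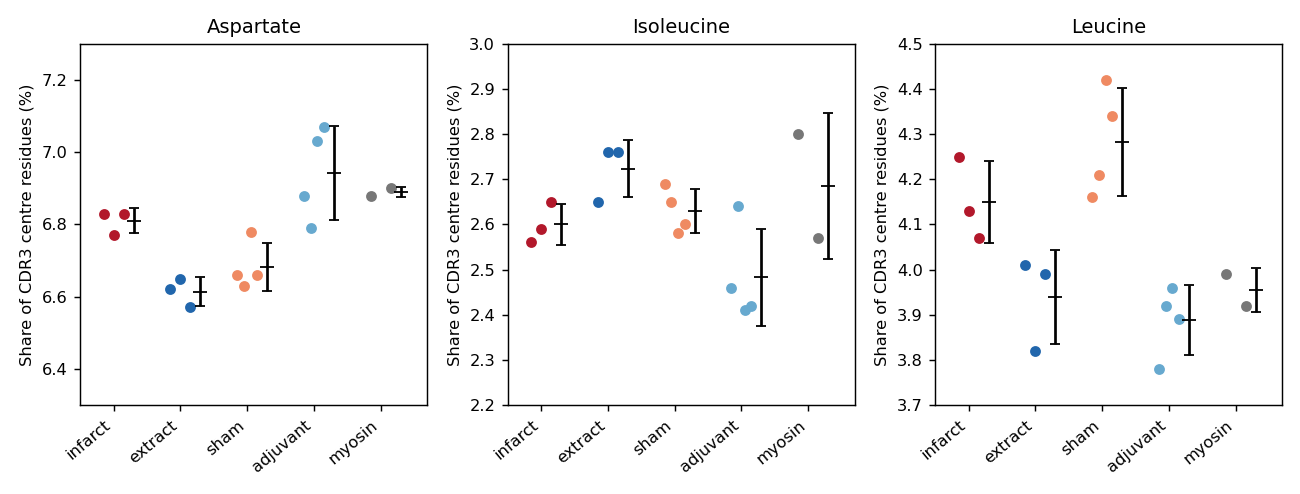
Share (%) of aspartate, isoleucine and leucine among the residues of the CDR3 centre, weighted by reads, in 16 lymph node libraries; the vertical axes do not start at 0. Points are libraries and bars the group mean and SD. Aspartate is higher in infarct (6.77% to 6.83%) than in extract nodes (6.57% to 6.65%), while the sham mean of 6.68% lies below the adjuvant mean of 6.94%.

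Counted once per distinct CDR3, the centre carried a mean net charge of -0.0955, -0.0978 and -0.0922 in the infarct nodes and of -0.0520, -0.0612 and -0.0379 in the extract nodes (exact permutation p = 0.100). The groups did not overlap, but the difference of -0.0448 turned to 0.0353 when entries under 10 reads were left out, so its direction depended on those entries. It was -0.0722 ± 0.0235 in the sham and -0.0756 ± 0.0187 in the adjuvant nodes. Weighted by reads, the charge was -0.0333 ± 0.00302 and -0.0264 ± 0.0117 (exact permutation p = 0.400), beside -0.0288 ± 0.00318 in the sham and -0.0546 ± 0.0117 in the adjuvant nodes. A hydrophobic pair at CDR3 positions 6 and 7 was found in 0.869% ± 0.0847 of infarct reads and 0.886% ± 0.0756 of extract reads (exact permutation p = 0.900), beside 0.925% ± 0.128 in the sham and 0.845% ± 0.101 in the adjuvant nodes.

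At the level of single CDR3s, 0 of 121771 tested (0%) passed between infarct and extract nodes in edgeR. An unadjusted p under 0.05 was found for 4931, a fraction of those tested that is itself below 0.05. The calls by DESeq2 numbered 13187, of which 12454 were on the side of the infarct nodes, the side that listed more distinct CDR3s. The 5 of at most 14 residues with the smallest p in edgeR each had most of their reads in 1 library, and each had an adjusted p of 0.266. Besides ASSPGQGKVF and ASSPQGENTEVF, shown above, they are printed here to show in how few libraries such CDR3s were listed.
higher in extract nodes: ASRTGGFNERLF
higher in extract nodes: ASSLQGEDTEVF
higher in infarct nodes: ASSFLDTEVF
In extract node 3 the first 2, both with TRBV14, had 8339 and 6423 reads, and neither was listed in another extract or infarct node. Outside these groups, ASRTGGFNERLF had 14 reads in adjuvant node 4 and 8 in myosin node 2, and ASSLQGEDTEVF had 363 in sham node 4 and 12 in adjuvant node 1. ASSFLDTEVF (TRBV14) had 7037 reads in infarct node 3 and 171644 in heart 3, with 2 in adjuvant node 2 and 2 in myosin node 2. With 3 reads per library taken as the upper limit for the empty group, the mean share of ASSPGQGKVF was at least 2157-fold and that of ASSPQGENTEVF at least 1036-fold higher in the infarct nodes, each resting on 1 library. In infarct nodes 1, 2 and 3 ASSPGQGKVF had 28, 0 and 21935 reads and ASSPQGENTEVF 8567, 12 and 156. Both bounds cover counting error only.

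A different pattern appeared among the 316 CDR3s that were listed in all 16 nodes. Of these 1 passed (0.316%), with few reads in each extract node. An unadjusted p under 0.05 in edgeR was found for 12 of the 316, again a fraction below 0.05.
listed in all nodes: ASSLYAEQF
The CDR3 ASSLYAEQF, mainly with TRBV14 and TRBJ2-1, had 722, 833 and 837 reads in infarct nodes 1, 2 and 3 but 49, 18 and 9 in the extract nodes. Its mean share was 0.00951% ± 3.47e-04 of infarct reads and 3.16e-04% ± 2.71e-04 of extract reads, a ratio of 30.1 and a fitted log2 fold change of 4.91 (SE 0.929, adjusted p = 0.0108 over the 316). Its share was 0.0116% ± 0.00257 in the sham, 0.0105% ± 0.00494 in the adjuvant and 0.00842% ± 0.00538 in the myosin nodes, with 400 to 1254 reads in each of those 10 libraries, so that the 3 extract nodes were the lowest of all 16. Adjusted over all 121771 CDR3s its p was 0.303, and it was not listed in any heart.

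More CDR3s were listed in every infarct node than in every extract node. In all 3 infarct nodes 23999 CDR3s were listed, and in all 3 extract nodes 1870. The 1469 in both lists made up 6.12% of the first and 78.6% of the second. None of these 1469 was missing from every sham and adjuvant node. All 3 infarct nodes but no extract node listed 9299 CDR3s, of which 7524 were also in a sham node. The reverse set, in all 3 extract nodes and no infarct node, held 42 CDR3s. Of these, 21 were also in an adjuvant node and 26 in a sham node. Every infarct node listed more CDR3s than any extract node, and the part of list length in these counts was not tested.

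Of the 5 CDR3s with the highest mean share in each of these classes, those also listed in a heart or listed in no other node are printed, to show how such sequences were spread over the libraries.
all infarct nodes, no extract node: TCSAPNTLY
all infarct nodes, no extract node: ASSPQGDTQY
all infarct nodes, no extract node: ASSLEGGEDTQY
all extract nodes, no infarct node: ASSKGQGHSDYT
all extract nodes, no infarct node: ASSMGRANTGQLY
The CDR3 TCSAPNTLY, with TRBV1 and TRBJ2-4, had 30, 33 and 3429 reads in the infarct nodes and was not listed in any other node or heart. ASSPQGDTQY, with TRBV19, had 27, 365 and 5130 reads in the infarct nodes and 164396 in heart 3, and was also listed in 2 sham nodes (72 and 235 reads), in adjuvant node 4 and in myosin node 2. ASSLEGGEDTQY, with TRBV14, had 2, 76 and 3228 reads there and 49477 in heart 3, with 107 in adjuvant node 2 and 102 in myosin node 2. For all 3 CDR3s infarct node 3 held most of the reads.

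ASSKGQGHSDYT, with TRBV19 and TRBJ1-2, had 931, 617 and 221 reads in the extract nodes and was not listed in any of the other 16 libraries. Its reads were spread over all 3 extract nodes rather than concentrated in 1. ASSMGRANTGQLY, with TRBV19 and TRBJ2-2, had 754, 6 and 656 reads in the extract nodes and was likewise not listed elsewhere. The mean shares in the extract nodes were 0.00726% and 0.00604%. Both were chosen for this pattern, and no test was made of it.

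The overlap of read shares, given by the Morisita-Horn index (0 for no shared CDR3, 1 for identical shares), followed the same order. It was 0.332 on average between infarct nodes (0.291 to 0.391, 3 pairs), 0.1000 between extract nodes (0.0723 to 0.133) and 0.167 between an infarct and an extract node (0.0977 to 0.267, 9 pairs). The mean index of the extract nodes was thus higher with infarct nodes than with each other. The mean within groups exceeded that between groups by 0.0489 (exact one-sided permutation p = 0.100, the smallest possible), and this difference was -0.0133 to -0.00156 without any 1 infarct node, where 1 infarct pair is averaged with 3 extract pairs, so that these values carry another weighting and no test of stability. The index was 0.163 within the sham and 0.141 within the adjuvant nodes, and 0.153 between sham and adjuvant nodes. Infarct nodes overlapped with sham nodes at 0.236 (0.119 to 0.433) and with adjuvant nodes at 0.199, and extract nodes with adjuvant nodes at 0.122 and with sham nodes at 0.131. With the myosin nodes, which are axillary, the index was 0.275 (0.234 to 0.312) for infarct nodes and 0.154 (0.0988 to 0.213) for extract nodes. Of the 1000 most abundant CDR3s of an extract node, on average 50.5% were listed in an infarct node and 27.2% in another extract node. The sham, myosin and adjuvant nodes listed 38.9%, 38.8% and 30.2% of them. Of those of an infarct node, 49.6% were listed in an extract node and 76.2% in another infarct node. Here the sham, myosin and adjuvant nodes listed 63.6%, 65.4% and 54.7%. Node lists differed in length, and the part of list length in these values was not tested.

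Infarct nodes listed more of the receptors found in infarcted hearts than extract nodes did. Averaged over the 3 hearts, 43.4%, 48.7% and 37.2% of heart reads had a CDR3 listed in infarct nodes 1, 2 and 3, and 13.6%, 23.3% and 10.1% in extract nodes 1, 2 and 3. The means were 43.1% ± 5.77 and 15.7% ± 6.84, without overlap (difference 27.4 percentage points, exact permutation p = 0.100). The sham nodes listed 28.0% ± 10.5, the adjuvant nodes 18.8% ± 7.74 and the myosin nodes 26.7%. The values rose with the number of CDR3s a library listed: sham node 3, with 211445 CDR3s, listed 40.6% of heart reads, and extract node 2, with 87211, the highest among the extract nodes. When only the 38424 most abundant CDR3s of each node were used, the infarct nodes listed 26.6% ± 3.21 and the extract nodes 13.4% ± 3.71 (24.5% to 30.3% against 10.1% to 17.5%, exact permutation p = 0.100), beside 19.2% ± 4.92 in the sham and 15.1% ± 4.52 in the adjuvant nodes.

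Infarct nodes and hearts carry the numbers 1 to 3 in the labels, and each heart was listed most by the infarct node of its own number, with 49.6%, 56.6% and 51.0%. The other 6 combinations ranged from 27.4% to 47.5%. Leaving out the heart of the same number, the infarct nodes still listed 38.4% ± 7.42 of heart reads, a difference of 22.7 percentage points from the extract nodes (exact permutation p = 0.100).

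**Figure D5:**
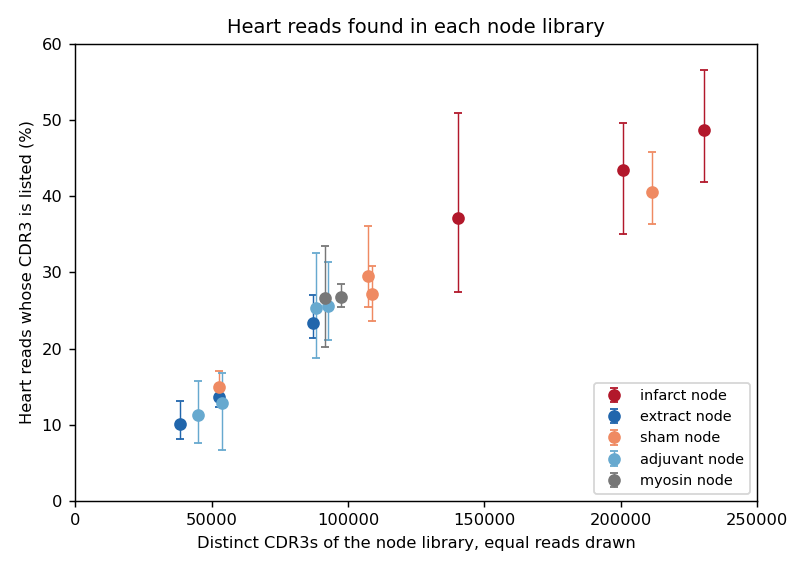
Percentage of heart reads that a node library covered by listing their CDR3, against the number of distinct CDR3s of that library; points give the mean over 3 hearts and bars the lowest and highest heart. Infarct nodes lie at 37.2% to 48.7% and extract nodes at 10.1% to 23.3%, and the sham node with 211445 CDR3s lies at 40.6%.

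Some heart receptors were nevertheless listed in the extract nodes. Of 11808 heart CDR3s, 406 were in at least 2 extract nodes and 1365 in at least 2 infarct nodes. The 2 printed here are the ones that were listed in all 3 extract nodes among the 5 with the highest mean share in the hearts.
heart 1 and all extract nodes: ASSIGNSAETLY
heart 2 and all extract nodes: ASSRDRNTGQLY
The CDR3 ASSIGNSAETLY, with TRBV19 and TRBJ2-3, had 56661 reads in heart 1, 397, 257 and 324 in the extract nodes and 361, 126 and 37 in the infarct nodes. It was listed in 2 sham nodes (259 and 56 reads) and in no adjuvant or myosin node. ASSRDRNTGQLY, with TRBV19 and TRBJ2-2, had 36664 reads in heart 2, 488, 413 and 295 in the extract nodes and 478, 550 and 743 in the infarct nodes, but it was listed in every sham, adjuvant and myosin node as well.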

How the data were processed

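The 16 lymph node and 3 heart tables were used as deposited. The deposited values are counts of reads as the authors' provider made them, not normalised, with a row per CDR3, TRBV and TRBJ segment. The lowest count listed was 2, so an unlisted CDR3 may have had a single read. Per the labels, TRB transcripts were amplified from total RNA by multiplex PCR with gene-specific primers and sequenced on an Illumina HiSeq. No source used here names the aligner, error correction or reference. PCR reads without molecular identifiers make intervals and floors cover counting error only.

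Reads were summed by TRBV, TRBJ, pair, CDR3 length, residue of the CDR3 centre and CDR3. Counts were compared with edgeR 4.0.16 in R 4.3.3 (glmQLFit, robust, legacy settings; glmQLFTest; library total as offset; Benjamini-Hochberg adjustment within a family and contrast, threshold 0.05), over all 16 node libraries in 5 groups. A CDR3 had to be listed in 3 or more libraries and reach 20 reads in total. Contrasts were infarct minus extract nodes, sham minus adjuvant nodes, and their difference. DESeq2 1.42.0 was an alternative. Diversity and sharing used 7534295 reads drawn per node library and exact permutation of labels. All 33 segments were matched to RefSeq symbols, whose synonyms gave the Vβ names. The edgeR fits were tried on simulated counts, and the permutation test on set values with a known p. Since the PCR took up TRB transcripts alone, marker genes could not be checked.

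Named segments, pairs, lengths and residues were those past the threshold (up to 12, 10, 8 and 8 by smallest p), or otherwise the 4 with the smallest p. Named CDR3s were the 5 with the smallest p where fewer than 5 passed, the most abundant of each library, and those of highest mean share in a sharing class. CDR3s longer than 14 residues were not printed. The CDR3 called among those in all 16 nodes came from a stricter filter. Members and lists were chosen with earlier results of these data known. Correlations across CDR3s were -0.00286, 0.0117 and 0.0115 for same-numbered infarct and extract nodes, and -0.0140 to 0.00168 for nodes of other numbers. All were very small, so numbers were not taken to pair infarct and extract nodes.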

Additional observations from a re-analysis of the deposited data

Results flagged for a closer look

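The difference between infarct and extract nodes and that between sham and adjuvant nodes were themselves different for aspartate (0.10 on the log2 scale) and isoleucine (-0.15) in the CDR3 centre, by the edgeR test of the difference. In 68 groups of 4 libraries examined, 5 held a library far from the other 3 by Dixon's test, where chance gives about 1 in 20. Sham node 3 held 1.66% of its reads in TRBV29 against 0.515% to 0.641% in the other sham nodes. Sham node 4 held 20.4% in TRBV5 against 19.0% to 19.2%, a hydrophobic pair in 1.12% of reads against 0.850% to 0.877%, and a mean net charge of the centre of -0.0372 over distinct CDR3s against -0.0877 to -0.0812; it also listed the fewest CDR3s of the sham nodes, 52635. Sham node 1 held 4.83% in TRBJ1-2 against 4.22% to 4.28%.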

How the results depend on the processing

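Between infarct and extract nodes, TRBV calls (4) became 9 without entries under 10 reads and 2 to 4 without 1 library. TRBJ calls (1) became 7 for distinct CDR3s and 2 in a fit of the 6 libraries alone, and 0 with DESeq2, without entries under 10 reads, without the 100 most abundant CDR3s and with the replicate block (adjusted p = 0.0528), and 0 to 1 without 1 library. Pair calls (0) became 34 for distinct CDR3s, 12 without entries under 10 reads, 8 with DESeq2, 1 under the stricter filter and 0 to 2 without 1 library (2 without extract node 1, 1 without extract node 3). Length calls (0) became 2 with DESeq2, for distinct CDR3s and in the fit of 6 libraries. Residue calls (0) became 8 for distinct CDR3s, 2 under the stricter filter, 1 without the 100 most abundant CDR3s and 0 to 1 without 1 library (1 without infarct node 3). CDR3 calls (0) became 13187 with DESeq2 and 1 in the stricter filter. In the difference of contrasts, TRBV calls (0) became 2 without entries under 10 reads and 0 to 1 without 1 library; TRBJ calls (0) became 1 with TMM factors, 1 without legacy settings, 1 without the 100 most abundant CDR3s and 0 to 5 without 1 library; pair calls (0) became 4 with DESeq2 and 0 to 1 (1 without sham node 3); length calls (0) became 2 with DESeq2, 1 with the replicate block and 0 to 1 (1 without extract node 1); residue calls (2) became 0 with DESeq2 and for distinct CDR3s, 1 with TMM factors, 1 without entries under 10 reads and 1 to 3 without 1 library. With the replicate block, which pairs same-numbered libraries, the counts of calls not named above stayed within 1.5 times. The sign turned for distinct CDR3s in TRBV2 (0.06) and, in the difference, TRBV5 (-0.09), TRBV4 (-0.04) and TRBJ2-2 (0.01), and in TRBV12-2 with TRBJ1-1 (-0.21). Without entries under 10 reads it turned in the mean length over reads (0.00518) and the net charge over distinct CDR3s (0.0353). Without 1 library, mean length over reads ran from -0.0132 to 0.0112, the hydrophobic pair over reads from -0.0605 to 0.0240, and the Morisita-Horn difference from -0.0133 to 0.137. The excess in distinct CDR3s ran from 58579 to 111515, the latter without sham node 3, with exact permutation p from 0.0371 to 0.293. On a log2 scale, chosen after seeing the data, that excess was 1.06 (exact permutation p = 0.127). The causes were not tested. The direct exact test of 3 against 3 libraries cannot go below 0.100, and CDR3s with few reads are listed or not by chance of sampling.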
